A study of Homo sapiens with 4 samples.

Results

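Among the peaks that the submitters' annotation placed in the promoter class, 1593 lay before the transcription start of a coding gene, 907 in the list of replicate 1 and 686 in the list of replicate 2, out of 53161 peaks in both lists together. The lists hold each peak with every transcript it was assigned to. Each peak was taken once, promoter-class peaks with at least 1 coding transcript (a RefSeq name beginning NM_) were kept, and the nearest coding start decided the side. The deposited distance runs from the middle of the peak to the start, and a value below 0 placed the peak before it. Of 3470 promoter-class peaks with a coding transcript in list 1, the other 2563 lay at or after the start, and of 2940 in list 2, the other 2254 did.

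The lists come from RNA immunoprecipitation and sequencing of YBX1 in PANC-1 cells, an established line of human pancreatic cancer cells. The 4 libraries are 2 YBX1 immunoprecipitates (IP) and 2 inputs without antibody, and each list sets the IP of 1 replicate against the input of the same number. The cells behind all 4 libraries, inputs included, had first been exposed to extracellular vesicles (Evs) from CAFs, the usual short form for cancer-associated fibroblasts; after ultraviolet crosslinking, the lysate was sonicated and digested with RNase I and DNase. Cells without vesicles and a control antibody were not analysed here, whether the replicates are separate cultures is not said in the labels, and the kit used for the libraries was one for DNA, so the peaks carry no strand of their own.

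YBX1 belongs to the proteins with a cold-shock domain, which bind RNA and also DNA. It was first described as a protein that recognises the Y-box, a promoter element with the core CCAAT, and in the cytoplasm it packages messenger RNA and affects its stability and translation. The stretch before a gene's start is usually not part of that gene's RNA, but it can hold the end of the gene before it, the start of a gene that runs the other way, or an earlier start of the same gene. RNA recovered there is listed under the gene whose start is nearest, whichever gene it came from.

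The promoters of 5 of the genes are shown to set the start itself beside the Y-box core. Each line is the 250 bases before the start, 5′ to 3′ on the gene's strand, from RefSeq on GRCh38.p14, with CCAAT or its reverse complement ATTGG in capitals. HIST2H2AA3 (chr1:149842751-149843000, minus strand) and MKI67 (chr10:128126424-128126673, minus strand) were taken for peaks across the start in both lists, and GRAMD2 (chr15:72197788-72198037, minus strand) for a pair of strong peaks that lie further out than this window. HIST2H2BF (chr1:149812371-149812620, minus strand) and EP300 (chr22:41092342-41092591, plus strand) also had peaks across the start and were added after their values were seen.
HIST2H2AA3: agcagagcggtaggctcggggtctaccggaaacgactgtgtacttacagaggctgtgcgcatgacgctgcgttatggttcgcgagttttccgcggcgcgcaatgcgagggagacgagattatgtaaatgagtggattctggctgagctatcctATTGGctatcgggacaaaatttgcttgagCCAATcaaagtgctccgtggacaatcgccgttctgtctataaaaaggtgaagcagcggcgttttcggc
MKI67: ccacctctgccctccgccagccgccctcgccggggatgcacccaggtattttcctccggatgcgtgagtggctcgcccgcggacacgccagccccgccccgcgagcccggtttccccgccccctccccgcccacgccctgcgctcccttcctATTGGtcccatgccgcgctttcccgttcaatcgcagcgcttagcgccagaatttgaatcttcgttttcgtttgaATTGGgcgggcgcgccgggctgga
GRAMD2: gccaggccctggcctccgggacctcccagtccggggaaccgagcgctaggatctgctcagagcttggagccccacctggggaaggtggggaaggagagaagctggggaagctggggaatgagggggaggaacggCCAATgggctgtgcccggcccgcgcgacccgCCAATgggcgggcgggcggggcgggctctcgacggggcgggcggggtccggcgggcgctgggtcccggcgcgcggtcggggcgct
HIST2H2BF: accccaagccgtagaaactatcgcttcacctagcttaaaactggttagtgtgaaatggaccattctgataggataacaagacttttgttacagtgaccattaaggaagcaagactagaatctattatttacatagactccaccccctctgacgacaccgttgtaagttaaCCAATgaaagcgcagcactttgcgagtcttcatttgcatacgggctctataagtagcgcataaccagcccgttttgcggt
EP300: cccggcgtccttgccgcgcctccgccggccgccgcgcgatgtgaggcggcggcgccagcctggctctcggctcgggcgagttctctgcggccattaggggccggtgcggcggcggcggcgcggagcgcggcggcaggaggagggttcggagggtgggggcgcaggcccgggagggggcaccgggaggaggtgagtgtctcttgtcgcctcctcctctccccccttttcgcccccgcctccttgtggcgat
HIST2H2AA3, a gene of histone H2A, has ATTGG beginning 97 bases and CCAAT beginning 68 bases before its start. MKI67, which encodes the proliferation marker Ki-67, has ATTGG at 98 and at 24 bases, and the reference gene is 221 bp longer than the transcript in the lists, so its start may differ. GRAMD2 has CCAAT at 116 and 85 bases, HIST2H2BF, a gene of histone H2B, has it at 80 bases, and the window of EP300, which encodes a histone acetyltransferase, has neither reading. A match is a description of the letters and not a binding site.

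Peaks before the start were spread over the whole window, with some rise close to the start but less crowding than just after it. The median distance was 746 bp before the start in list 1 and 768 bp in list 2, over ranges of 1 to 1997 bp and 2 to 1997 bp. The last 100 bp before the start held 85 peaks in list 1 and 83 in list 2. Nearest to 0 were OGFOD2 and BTN2A2, each 1 bp before the start in list 1, with SIRT2 and USP34 at 0 on the other side. In list 2 they were RIN3 at 2 bp and MTMR14 at 6 bp before, with MRPL54 at 0 and SELENOT 2 bp after.

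**Figure D1:**
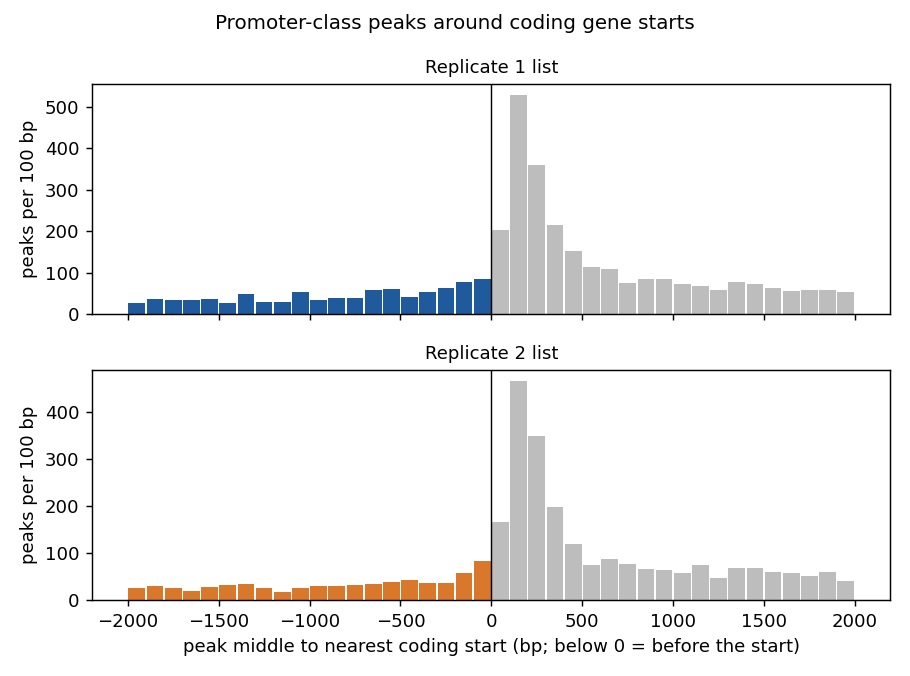
Number of promoter-class peaks per 100 bp (vertical axis) by distance of the peak's middle from the nearest coding start in bp (horizontal axis), list of replicate 1 above and replicate 2 below; coloured bars are peaks before the start and grey bars peaks at or after it. Over the last 300 bp before the start the counts per bar rise from 63 to 78 to 85 peaks in list 1 and from 36 to 57 to 83 in list 2. The grey bars are tallest in the second 100 bp after the start, at 530 and 466 peaks.

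The authors' own values per peak differed between the lists. Reads inside the peak ranged from 11 to 10681 with a median of 49 in list 1, and from 6 to 4611 with a median of 16 in list 2. The fold of IP over input, as the peak caller scaled it, ran from 2.48 to 50.26 with a median of 9.42 in list 1. In list 2 it ran from 5.47 to 200 with a median of 25.31. List 2 thus held fewer reads per peak and larger folds, so the fold cannot be used to compare the lists. Within a list, a ranking by fold should be read beside the reads, since the fold fell as reads rose in the overlapping pairs described below. The empirical false discovery rate was 17.16% to 21.56% in list 1, whereas 358 of the 686 peaks of list 2 (52.2%) stood at 100%. The total read number of each library is not given in the lists, so the read counts are not scaled to depth, and intervals here cover counting error only.

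A peak counts as shared here if at least 1 bp of it is also covered by any peak in the other list. In list 1, 254 of 907 peaks before the start were shared, or 28% (25.1% to 31%, exact Clopper-Pearson 95% interval), beside 31.6% of all peaks in that list. In list 2, 261 of 686 were shared, or 38% (34.4% to 41.8%), beside 34.7% of all its peaks. The members were thus near the background in both lists. Peaks at or after the start were shared at 32.1% and 37.5%. By Fisher's exact test, two-sided and adjusted over 6 tests by Benjamini-Hochberg, the odds ratio of before against after was 0.822 in list 1 (adjusted p = 0.0325) and 1.02 in list 2 (adjusted p = 0.822). Against all other peaks of the list it was 0.839 in list 1 (exact test, adjusted p = 0.0325) and 1.16 in list 2 (adjusted p = 0.0807). By reads in the peak itself, with the other list unfiltered, the share in list 1 was lower before the start in each class: 4% against 7.1% under 20 reads, 11.5% against 19.2% at 20 to 49, 34.9% against 40.4% from 50 to below 200, and 63% against 65.4% at 200 or more. In list 2 the share before the start was lower only under 20 reads, at 14.7% against 19.8% after it. In the higher classes of list 2 it was the larger: 47.8% against 44.7%, 70.4% against 64.2% and 90.8% against 87.7%. With 20 or more reads required in the peaks of both lists, the odds ratio was 1.08 in list 1 (exact test, adjusted p = 0.464) and 1.44 in list 2 (adjusted p = 0.0157). Peaks of a list share a library, so these p-values describe the peaks of these libraries and not a difference between conditions.

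Shared peaks before the start were stronger in reads, weaker in fold and longer than the rest. Their median was 233 reads against 30 in list 1, and 66 against 10 in list 2. The median fold was 8.05 against 10.05 in list 1 and 17.5 against 25.31 in list 2. Shared peaks had a median length of 873 bp against 331 bp in list 1 and 825 bp against 287 bp in list 2. They also lay further from the start, with medians of 875.5 bp against 697 bp in list 1 and 875 bp against 650 bp in list 2.

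The overlap was mostly between peaks of the same kind. In list 1, 221 of the 254 shared peaks (87%) overlapped a peak before a coding start in the other list, and 28 overlapped one at or after a start. In list 2 the counts were 221 of 261 (84.7%) and 29. By gene, 868 coding genes (4.46% of 19462) had such a peak in list 1, 658 (3.38%) in list 2 and 239 in both, which is 27.5% of the first list's genes and 36.3% of the second's. For 213 genes the peaks also overlapped, in 220 pairs, or 1.09% of 19462 coding genes.

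Within the 220 pairs the read counts of both lists ranked the peaks in nearly the same order, and the folds did so less. Spearman's rho across the pairs was 0.921 for reads and 0.481 for fold, as a description, since peaks of a list share its library and long peaks hold more reads. The median pair had 238.5 reads in list 1 and 77.5 in list 2, and the median folds were 7.93 and 17.31. Across the pairs the fold fell as reads rose, with Spearman's rho of -0.393 in list 1 and -0.594 in list 2. The pairs were chosen for their overlap, so some match of positions was fixed by that choice. The overlap covered a median 81.4% of the stretch that both peaks spanned together, and 148 of 440 peak edges (33.6%) lay within 20 bp of each other. In list 2, 107 of the 220 peaks carried a false discovery rate of 100% although a peak of list 1 overlapped them.

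**Figure D2:**
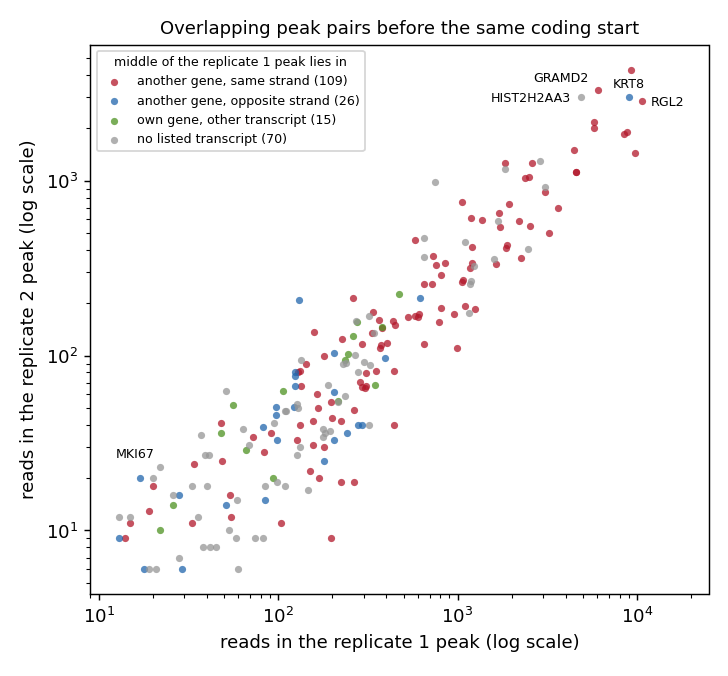
Reads inside the peak of replicate 1 (horizontal axis, log scale) and of replicate 2 (vertical axis, log scale) for the 220 overlapping pairs, 1 point per pair, coloured by the listed transcript that holds the middle of the replicate 1 peak. Spearman's rho is 0.921, and red points, peaks inside another gene on the same strand, make up most of the upper right end.

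The strongest pairs lay in the last part of the gene before. Pairs were ranked by the smaller read count of both lists. GRAMD2, among the first of them, had 6039 reads and a fold of 7.99 in list 1 and 3314 reads and a fold of 10.85 in list 2. Those peaks (chr15:72491297-72492154 and chr15:72491296-72492145, hg19, as are all peak positions here) lay inside PKM, the gene of the glycolytic enzyme pyruvate kinase, 356 and 351 bp from its end, and 1589 and 1584 bp before the start of GRAMD2. The CCAAT boxes printed above for GRAMD2 were thus not under its peaks.

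The same arrangement held for 8 of the 10 pairs with the most reads. RGL2, an exchange factor for Ral, had 10681 and 2863 reads at folds of 7.15 and 14.95, inside TAPBP, which encodes the peptide-loading protein tapasin. PRRT2, a protein of the nerve terminal, had 5738 and 2164 reads at folds of 6.79 and 13.66, inside the gene of the zinc finger factor MAZ. PYGO2, a coactivator of Wnt signalling, had 5720 and 1992 reads at folds of 4.61 and 12.25, inside SHC1, an adaptor of receptor tyrosine kinases. HNRNPUL1, an hnRNP protein, had 8835 and 1886 reads at folds of 6.71 and 7.21, inside the gene of the receptor tyrosine kinase AXL, with both peaks 1994 bp before the start. In each of these, the gene inside which the peak lay runs on the same strand as the gene that the list names. HIST2H2AA3 and KRT8 were the pairs among the first 10 without it.

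KRT8, a keratin of simple epithelia, had 8975 reads at a fold of 15.09 in list 1 and 3010 reads at a fold of 21.88 in list 2. The start was that of an alternative transcript, the middles lay 138 and 1853 bp before it, and both lay inside a listed transcript of the neighbouring KRT18, the partner keratin, on the opposite strand. HIST2H2AA3 had 4899 reads at a fold of 19.41 and 3019 reads at a fold of 25.9. Both peaks ran across its start, with no listed transcript of another gene under their middles. Its listed transcript spans only 534 bp, and the peaks, of 2056 and 1358 bp, covered all of it, so they were not confined to the promoter. HIST2H2AA3 has a near-identical copy, HIST2H2AA4, so reads may have been split between them.

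Over all peaks before the start, 204 of 907 in list 1 (22.5%) and 151 of 686 in list 2 (22%) had their middle inside a listed transcript of another gene on the same strand. Those peaks were shared at 54.9% in list 1 (112 of 204; 47.8% to 61.9%, exact 95% interval) against 20.2% of the other peaks before the start. In list 2 they were shared at 74.8% (113 of 151; 67.1% to 81.5%) against 27.7%. The odds ratio was 4.81 in list 1 (Fisher's exact test, two-sided, adjusted p = 3.10e-20) and 7.78 in list 2 (adjusted p = 9.66e-25). This comparison was chosen after the data were seen, and transcripts could be recognised only where their gene is named in either list. Restricted to peaks within 500 bp of the start, where 16 peaks in list 1 and 15 in list 2 lay in such a gene, the odds ratios were 2.47 (exact test, adjusted p = 0.164) and 1.43 (adjusted p = 0.572).

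**Figure D3:**
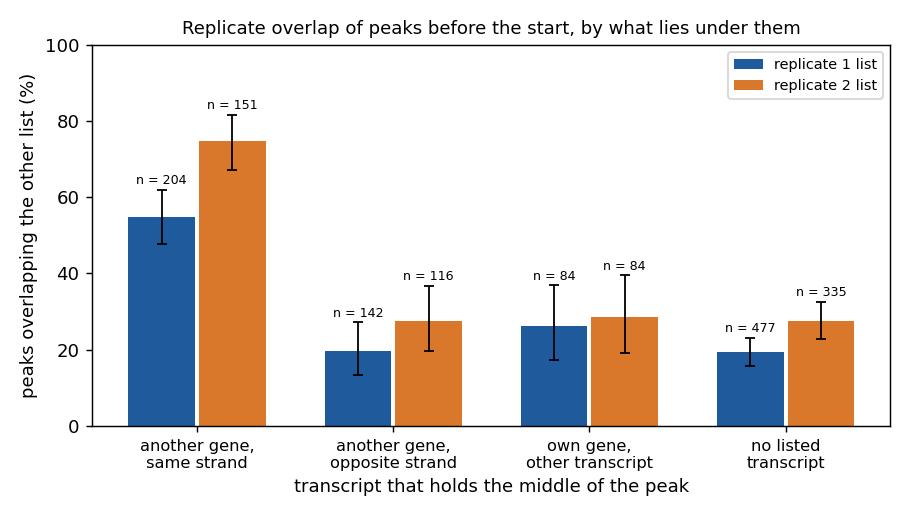
Share of peaks before the start that overlap a peak of the other list (vertical axis, percent), by the kind of listed transcript that holds the middle of the peak, for replicate 1 (blue) and replicate 2 (orange). Bars are shares, error bars exact 95% binomial intervals, and n the number of peaks; the bars for another gene on the same strand stand at 54.9% and 74.8%, and the highest of the others is 28.6%.

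These peaks lay in the last part of the gene around them, which the choice of peaks largely fixes: a same-strand gene that holds a point so near the next start and ends before that start must end close by. Their middles were a median 458.5 bp from that gene's listed end in list 1 and 482 bp in list 2, and 177 of 204 (86.8%) and 132 of 151 (87.4%) were within 1000 bp of it. The peak ran across that end in 147 of 204 (72.1%) and 93 of 151 (61.6%). All but 1 of these genes in list 1 and all 146 in list 2 were protein-coding. The peaks were also the stronger ones, with medians of 291 reads and a fold of 7.095 in list 1, and 82 reads and a fold of 15.28 in list 2. They were longer too, with a median of 952 bp in list 1 and 872 bp in list 2. Medians of the other kinds ran from 321 to 569.5 bp in list 1 and from 289 to 392.5 bp in list 2. The shares were not matched for length. Of the 20 pairs with the most reads, 15 had a same-strand gene under both peaks, and of all 220 pairs 109 did.

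Peaks inside a gene on the opposite strand formed a smaller set with fewer reads. They numbered 142 in list 1 and 116 in list 2, with shares of 19.7% and 27.6% shared and medians of 38 and 16.5 reads. Their middles were a median 12926 and 11154 bp from the end of that gene, a distance that also follows from its orientation, since such a gene usually begins near the named start. Peaks under which no listed transcript was found made up 52.6% of list 1 and 48.8% of list 2 and were shared at 19.3% and 27.5%, with medians of 29 and 10 reads. Peaks inside another transcript of the same gene were shared at 26.2% and 28.6%.

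Since shared peaks held more reads, the shares were also set side by side within classes of reads. Among peaks with under 20 reads, 33.3% of those inside a same-strand gene were shared in list 1 (3 of 9) against 2.78% of the others (6 of 216). In list 2 it was 37.5% (12 of 32) against 12.6% (44 of 348). The exact 95% intervals did not overlap in either list, though that of the 9 peaks ran from 7.49% to 70.1%. Among peaks with 200 or more reads the shares were 66.4% against 59% in list 1 and 97.8% against 80.6% in list 2, with overlapping intervals. The share inside a same-strand gene was the higher in all 4 classes of both lists. The proportion of peaks inside such a gene itself went up with reads, from 4% of peaks under 20 reads to 54.3% of those with 200 or more in list 1, and from 8.42% to 59.2% in list 2.

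**Figure D4:**
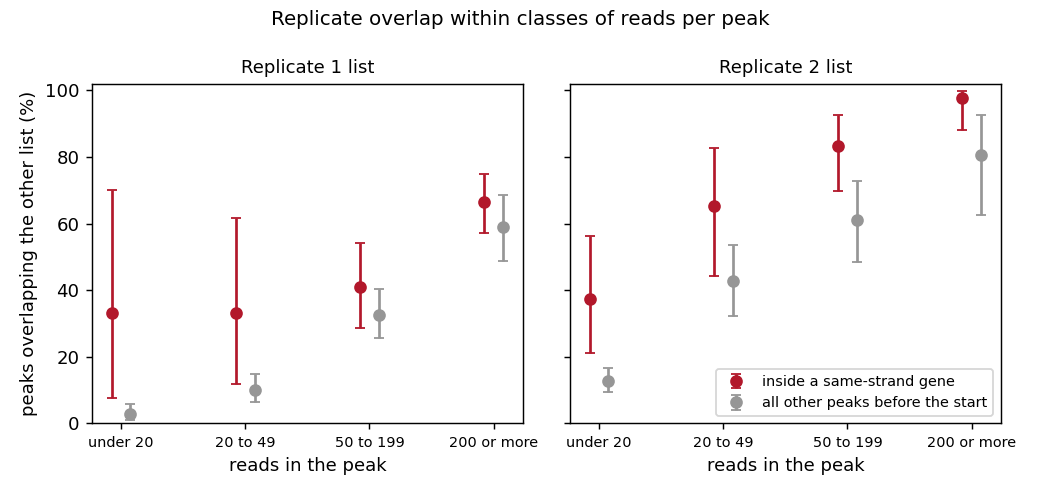
Share of peaks before the start that overlap a peak of the other list (vertical axis, percent) within 4 classes of reads per peak (horizontal axis), replicate 1 on the left and replicate 2 on the right. Red points are peaks whose middle lies inside another gene on the same strand, grey points all other peaks before the start, and bars exact 95% intervals; the red point is higher in every class, with intervals that overlap in all but the class under 20.

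A look at the order of genes on the reference gave a similar contrast, but it is not independent, since it used the same peaks. The peaks inside a same-strand gene, 109 of the 220 pairs among them, were kept. Their genes mostly have a same-strand neighbour upstream by that choice. Among 13170 coding genes whose upstream coding neighbour has a known strand, that neighbour ran on the same strand for 48.9% (48% to 49.8%, exact 95% interval). Among genes with a shared peak before the start it did so for 130 of 175 in list 1 (74.3%; 67.1% to 80.6%) and 134 of 185 in list 2 (72.4%; 65.4% to 78.7%). Where the peak was not shared the figures were 57.3% in list 1 and 47.1% in list 2. Of 155 genes with an overlapping pair, 123 (79.4%) had a same-strand neighbour upstream. The neighbours were taken from GRCh38 by order only.

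The pairs with the highest folds, among those with 20 or more reads in both lists, mixed the kinds. B3GALT4, a galactosyltransferase, led with folds of 25.1 and 27.63 on 197 and 54 reads, inside RPS18, a protein of the small ribosomal subunit, 495 and 504 bp from its end. DOK3, an adaptor of immune receptor signalling, had folds of 20.5 and 36.67 on 367 and 159 reads, inside the gene of the helicase DDX41. MRPL28, a mitochondrial ribosomal protein, had 17.49 and 30.56 on 1100 and 192 reads inside TMEM8A. MDK, which encodes the growth factor midkine, had 15.43 and 50 on 157 and 42 reads inside DGKZ, a diacylglycerol kinase. All 4 of these lay on the same strand as the gene around them.

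In the other pairs of that group no same-strand gene lay under the peak. TKFC, a dihydroxyacetone kinase, had folds of 19.21 and 29.77 on 125 and 81 reads, inside DDB1, a DNA damage binding protein, on the opposite strand. CRIP3 had folds of 15.2 and 25.74 on 182 and 36 reads, 1555 and 1554 bp before its start, with no listed transcript there and edges 1 and 2 bp apart. MKI67 had folds of 15.8 and 27.08 on 22 and 23 reads, across its start, and HIST2H2AA3 also belonged to this group.

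**Figure D5:**
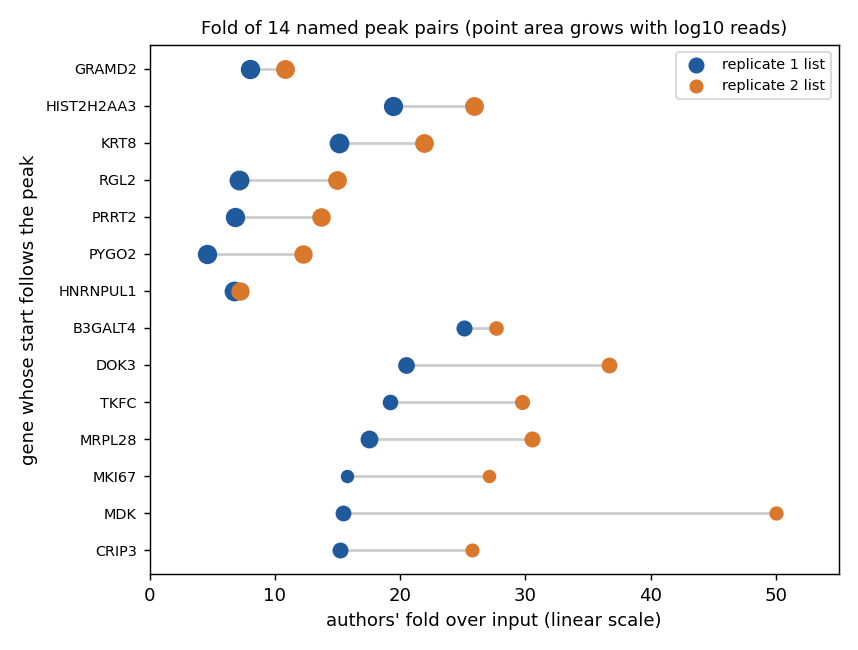
Authors' fold of IP over input (horizontal axis, linear) for 14 genes named by reads or fold, replicate 1 in blue and replicate 2 in orange, with point area growing with log10 reads. All 14 folds are higher in list 2, whose folds run higher as a whole; genes named by reads are at the top, and those inside a same-strand gene have folds between 4.61 and 14.95.

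A smaller class of peaks ran across the start itself. It held 204 of 907 in list 1 (22.5%) and 154 of 686 in list 2 (22.4%), and 59 and 51 of these had their summit at or after the start. They were shared at 33.8% (27.4% to 40.8%, exact 95% interval) and 42.2% (34.3% to 50.4%), against 26.3% and 36.8% for peaks wholly before the start. Their medians were 89.5 and 27 reads, against 35 and 12.5. Among pairs, 27 ran across the start in both lists with no same-strand gene underneath, at median folds of 9.44 and 22.16, beside 7.02 and 14.13 for the 109 pairs inside a same-strand gene.

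Histone genes gave the plainest examples. HIST2H2BF had 753 reads at a fold of 8.48 in list 1 and 976 reads at a fold of 16.68 in list 2, with middles 64 and 61 bp before the start, and its CCAAT box lies within the peaks' stretch. As for MKI67, its reads were higher in list 2. EP300 had 128 and 27 reads at folds of 11.79 and 36.62, with middles 176 and 152 bp before the start. MUC1, the gene of an epithelial mucin, had 133 and 30 reads at folds of 12.76 and 39.29, also across the start in both lists. DNAJB1, a heat-shock cochaperone, had 474 and 224 reads at folds of 10.51 and 16.35 across a listed start that lies inside another of its transcripts.

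Some peaks had their middle between 2 starts that face away from each other. There were 57 of these in list 1 (6.28%) and 35 in list 2 (5.1%), with median gaps between the starts of 465 and 472 bp, and 33.3% and 42.9% were shared. ITGB1BP1, an integrin-binding protein, and CPSF3, the endonuclease that cleaves messenger RNA precursors, had 236 and 94 reads at folds of 8.7 and 20, in peaks that also ran across the start of ITGB1BP1. MASTL, a mitotic kinase, and YME1L1, a mitochondrial protease, had 135 and 94 reads at folds of 5.98 and 21.22, in peaks of 977 and 1107 bp that ran beyond both ends of the 403 bp gap. DDX5, an RNA helicase, and CEP95 had 106 and 63 reads at folds of 13 and 12.81 in a gap of 779 bp. PPP5D1 and the calmodulin gene CALM3 had 97 and 51 reads at folds of 6.35 and 18.17 in a gap of 868 bp. The middles of the PPP5D1 peaks lay inside a listed transcript of CALM3. Those of DDX5 and ITGB1BP1 lay inside another listed transcript of the same gene, and those of MASTL inside none. With both genes on opposite strands and no strand to the reads, the peaks cannot be given to either gene by strand.

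Few genes had more than 1 such peak, and 837 of 868 genes in list 1 and 640 of 658 in list 2 had only 1. AMT, SLC44A4, ZASP and ZNF653 had the most, 4 each, in 2 shared positions per gene. Those of SLC44A4, a choline transporter-like protein, lay inside EHMT2, a histone methyltransferase, with 130 and 54 reads in list 1 and 80 and 16 in list 2. Those of AMT, of the glycine cleavage system, had 178 and 127 reads in list 1 and 38 and 53 in list 2, with no listed transcript underneath. ZASP had folds of 27.28 and 42.36 in list 1 and 33.75 and 63.28 in list 2, on 8 to 59 reads, and ZNF653 had 42 to 130 reads in list 1 and 8 to 50 in list 2.

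Most of the peaks named a gene with neither a promoter-class peak after its start nor an exon-class peak. In list 1, 175 of the 907 peaks (19.3%) named a gene that also had a promoter-class peak at or after the start, 285 (31.4%) a gene with an exon-class peak, and 522 (57.6%) a gene with neither. In list 2 the counts were 111 (16.2%), 218 (31.8%) and 404 (58.9%). No matching share over other peaks or all coding genes was taken, so these shares cannot be called particular to peaks before the start. YBX1 itself had no peak before its start. Its promoter-class peaks lay after it, at 407 bp with 1740 reads and a fold of 11.25 in list 1, and at 306 bp with 505 reads and a fold of 26.98 in list 2.

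By gene group, pairs before the start were thinly spread. Beside these counts stand 4.46% of all coding genes with a peak before the start in list 1, 3.38% in list 2 and 1.09% with an overlapping pair, and the group counts are a description with no test. Of 76 histone genes, 6 had a peak before the start in each list and 2 an overlapping pair, HIST2H2AA3 and HIST2H2BF. Of 40 chromatin genes, 8 had such a peak in list 1, 1 in list 2 and 1 a pair, EP300. Of 25 glycolysis genes, 3 in each list and 1 pair, ALDOC, were found: the aldolase gene had 48 and 41 reads at folds of 34.46 and 5.95, inside SPAG5, a spindle protein, on the same strand. Of 30 chaperone genes 1 had a pair, DNAJB1.

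The groups closest to YBX1's known partners had no pair, which in groups of this size is near the 1.09% over all coding genes. Of 25 genes of the YBX family and of proteins that share its RNA particles, 3 had a peak before the start in list 1 and 1 in list 2. Of 78 ribosomal protein genes 4 and 2 did, of 40 translation factor genes 2 and 1, and of 39 splicing and hnRNP genes 1 and 2. Of 37 cell cycle genes 3 and 0 did, and of 36 genes of epithelial to mesenchymal change 3 and 1, also with no pair. Of 399 olfactory receptor genes, which few cells outside the nose express, 1 had a peak in list 1 and none a pair.

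The label of the cells was set against markers by asking which genes had any peak in both lists. The epithelial group was drawn up for PANC-1 and also holds VIM, a mesenchymal marker, so its counts and sums are not purely epithelial. Of its 10 markers 6 did, of 18 fibroblast markers 5, of 11 markers of exocrine and endocrine pancreas 2, of 8 endothelial markers 1 and of 14 immune markers 0. Summed over each group, all peaks held 53195 and 15498 reads for the epithelial group with VIM, 4808 and 471 for fibroblast and 58 and 1323 for immune markers. Before the start, overlapping pairs fell to KRT8 and MUC1 of the epithelial markers and to none of the others. The 1323 reads of the immune group in list 2 include the peak named for CD68, with 1061 reads, whose middle lay 487 bp from the end of the listed readthrough transcript SENP3-EIF4A1, on the same strand. That peak was looked up after the sums were seen.

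The promoters of the genes were searched for short sequences in the window from 250 bases before to 50 after the start, in RefSeq on GRCh38.p14. Of the 1287 genes with a peak before the start in either list, 1073 had a promoter in the table, and 15517 coding genes had one in all. CCAAT or ATTGG was in 32.8% of them (30% to 35.7%, exact 95% interval), beside 36.5% of all coding promoters. It was in 62 of 179 promoters of genes with an overlapping pair (34.6%). Where peaks of both lists lay on the same window counted from the listed start, it was in 22 of 60 (36.7%). The search used a single promoter per gene, whose start may differ from the listed start nearest the peak, so these promoters need not lie under the peaks. It was in 39.6% of promoters of genes with shared peaks after the start. The Y-box core was thus no more frequent in promoters of genes with a peak before the start than in promoters at large. Over genes with a peak in either list its share was lower.

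Other sequences differed more. The GC box GGGCGG (or CCGCCC, the other strand) was in 68.9% of the promoters (66% to 71.6%, exact 95% interval) beside 59.1% of all, and TATAA on the gene's strand was in 7.92% (6.38% to 9.7%) beside 12.9%. CATC on the gene's strand, a short RNA motif reported for YBX1, was in 43% (40% to 46%) beside 49%. Genes with shared peaks after the start showed 70.9% for GGGCGG, 11.1% for TATAA and 45.2% for CATC. The median number of CG dinucleotides was 26 beside 22, and the median G+C content 65.7% beside 63%. GGGCGG itself holds a CG, so these measures are not independent, and these shares are a description with no test. The sequence under the peaks themselves was not used here, since no genome of their build was at hand.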

How the data were processed

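YBX1 IP and input libraries of PANC-1 cells gave 2 annotated peak lists, 1 per replicate. The tools named per the submitters' processing notes are cutadapt 1.9.1 and Bowtie2 2.2.4, with genome build hg19; which peak caller the authors ran is not stated in the labels or headers. Per the file headers, the count is the number of reads (tags) in the peak, not scaled to depth, and the score is the caller's −log10 p multiplied by the factor 10. The fold, or enrichment ratio of IP over input, and the empirical false discovery rate in percent are the authors' deposited values. Total library depth is not stated.

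From these lists, rows were collapsed to peaks and the nearest coding start was taken; equal distances on both sides (2 peaks in list 1, 1 in list 2) took the side of the first row. Names were matched to RefSeq by accession for 98.8% and 98.9% of rows and by accession or symbol for 99.81% and 99.82%. A peak lay inside a gene when its middle lay between the ends of a transcript named in either list. Shares carry exact Clopper-Pearson 95% intervals. Fisher's exact tests (two-sided, scipy 1.17.1, with pandas 2.3.3 and Python 3.11.15) were adjusted by Benjamini-Hochberg over 6 tests at 0.05. Overlaps and shares were checked on simulated intervals with known answers, and the adjustment against another implementation. The odds ratios and p-values of Fisher's test were not checked in this way.

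Genes were named by a rule: the 8 pairs with the most reads by the smaller list, the 8 with the highest smaller fold at 20 or more reads, the 4 genes with the most peaks, up to 3 per gene list, YBX1, the 2 peaks nearest the start on each side, and 4 pairs of facing starts; some genes that it names are not reported here. Members, lists and rule were chosen with earlier results of these data known. Alternatives changed the overlap, the score, reads and fold minimums, the distance and the meaning of before the start; 1 list could not be left out of an overlap.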

Additional observations from a re-analysis of the deposited data

How the results depend on the processing

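No paired analysis was possible because each list already compares the IP of a replicate with the input of the same number, and no value of single input libraries was used. Leaving out a replicate list removes every overlap, so for overlaps it was not run; without 1 list, 658 to 868 genes with a peak before the start are left of 1287. The cause of the changes below was not tested.

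Genes with an overlapping pair numbered 213, and 94 at a minimum score of 100, 176 at 20 or more reads, 191 at 50% overlap and 166 with whole peaks before the start. The shared share of 28% in list 1 moved to 23.6% at 50% overlap, 24.9% within 500 bp, 18.4% at a fold of 10 or more, 24.4% counting only partners before a coding start, and 11.5% and 9.56% at scores of 100 and 200. The 38% of list 2 moved to 32.5%, 32.3%, 13.3% and 32.2% in the same order, to 79.7% and 85.7% at those scores, and to 66.7% at 20 or more reads. The minimums of score, reads and fold were applied to both lists, and list 2 holds fewer reads per peak. A score of 100 removed no peak of list 1, where the lowest score of any peak was 119.51. It left 128 of the 686 peaks before the start in list 2.

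Before against after the start, the odds ratio in list 1 of 0.822 turned to 1.08 at 20 or more reads (exact test, adjusted p = 0.464), 1.07 at a score of 100 (adjusted p = 0.694) and 1.3 at 200 (adjusted p = 0.348). It was 0.84 at 50% overlap (exact test, adjusted p = 0.0634) and 0.906 with whole peaks on 1 side (adjusted p = 0.343). It was 0.711 both within 500 bp (exact test, adjusted p = 0.0479) and at a fold of 10 (adjusted p = 0.0311). In list 2 the 1.02 became 1.44 at 20 or more reads (exact test, adjusted p = 0.0157) and 1.95 at a score of 100 (adjusted p = 0.012), and turned to 0.821 within 500 bp (adjusted p = 0.297) and 0.89 at a fold of 10 (adjusted p = 0.4). The direction thus depended on the setting in both lists.

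Inside a same-strand gene against other peaks, a comparison and settings added once the data were known, the odds ratio stayed above 1 throughout. It missed the threshold within 500 bp, at 2.47 in list 1 (exact test, adjusted p = 0.164) and 1.43 in list 2 (adjusted p = 0.572), and at a score of 200 in list 2, at 10.7 (adjusted p = 0.0573). Elsewhere it ran from 3.92 to 6.45 in list 1 and from 2.05 to 14.6 in list 2.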

Other observations

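Several peaks outside the rule for named genes were picked after their values were seen. ZC3H10 had 9693 and 1442 reads in a pair inside RPL41, a ribosomal protein gene, and ITGB1BP2 had 4460 and 1492 reads inside NONO, which encodes a nuclear RNA-binding protein. HIST1H2AC had 4611 reads at a fold of 27.25 in list 2, across its start, in a gap of 240 bp to HIST1H2BC.

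The highest folds of each list stood alone. RARA, the retinoic acid receptor alpha gene, reached 50.26 on 70 reads in list 1, and RECQL5, a DNA helicase gene, reached 200 on 60 reads in list 2, and neither peak overlapped one of the other list. Some strong peaks were in 1 list alone too, with 4180 reads named for GPX1 inside RHOA and 3942 reads before SNAPC5 in list 1.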
